A study of Mus musculus with 34 samples.

Results

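Cultured mouse ependymal cells that lacked Rfx2 were compared with cells of their wild-type siblings by RNA sequencing. The comparison used every sample labelled as Rfx2 knockout or as its wild type, which made 14 of the 34 samples of the study, and all genes that passed a low-count filter, which made 14305 of the 21647 genes counted. There were 6 knockout samples (Rfx2-/-) and 8 wild-type samples. The labels give both groups as strain C57BL/6, while the titles also carry the term OF1, which they do not explain. The cells came from the walls of the lateral ventricles of E18.5 embryos, were grown until confluent, and were then kept without serum for 4 days so that they would differentiate. No agent other than the withdrawal of serum is given for either group. The labels do not say which part of Rfx2 was removed, nor whether replicates came from separate embryos or cultures, so p-values measure only the spread between these samples, which may be partly technical. Cells of such a culture can include glia and other brain cells besides ependymal cells.

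Ependymal cells line the ventricles of the brain and carry tufts of motile cilia that move the cerebrospinal fluid. Each tuft grows from many basal bodies, and each cilium holds a ring of microtubule doublets with dynein arms, radial spokes and a central pair, built by intraflagellar transport (IFT), in which motor-driven protein trains carry parts to the tip. RFX2 and RFX3 are winged-helix transcription factors that bind the X-box, a palindromic motif found in promoters of many ciliary genes. FOXJ1, the master regulator of motile cilia, and the GEMC1 and MCIDAS proteins, which start multiciliation, act in the same programme.

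X-box matches were looked for in RefSeq promoter windows (GRCm38.p6, 250 bases before to 50 bases after a gene's start), as the letters GTTNCC, then NN, then GGNAAC, where N is any base, a motif that reads the same on both strands. These windows are printed because they show what the motif looks like at 5 ciliary genes that fell and at Btbd17, which rose. Each shows the stretch before the start of the gene, 5′ to 3′ on its strand, with the motif in capitals.
Iqca: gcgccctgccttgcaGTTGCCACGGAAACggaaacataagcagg
Ccdc151: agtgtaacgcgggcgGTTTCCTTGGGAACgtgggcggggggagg
Cfap298: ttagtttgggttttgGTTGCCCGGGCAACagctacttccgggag
Ttc26: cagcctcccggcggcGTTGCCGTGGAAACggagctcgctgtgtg
Bbs7: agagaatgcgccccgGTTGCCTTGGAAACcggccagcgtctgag
Btbd17: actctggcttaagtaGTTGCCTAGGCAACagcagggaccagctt
These lie at chr1:90153508-90153551 (minus strand), chr9:22002640-22002683 (minus strand), chr16:90935009-90935052 (minus strand), chr6:38381476-38381519 (plus strand), chr3:36613482-36613525 (minus strand) and chr11:114796002-114796045 (minus strand), with the motif starting 100, 34, 188, 33, 121 and 138 bases before the start of the gene. The first 5 genes were lower in knockouts and Btbd17, which encodes a BTB-domain protein, was higher (values are given with each gene). Promoter windows were matched for 11412 of the 14305 genes tested. The motif stood in the windows of 33 of 2144 genes called lower in knockouts (1.54%, exact Clopper-Pearson 95% interval from 1.06 to 2.15), of 9 of 1581 called higher (0.569%, 0.261 to 1.08) and of 37 of 7687 not called (0.481%, 0.339 to 0.663), and in 148 of all 32851 windows of that length (0.451%). Of the genes called lower, 81.3% had a window, but only 79.5% of those called higher and 79.4% of those not called, so a check between the classes is void and the shares describe the matched genes only. The median GC content of these windows was 59.0%, 62.4% and 60.7%, and 52.7% over all windows. Among motile axoneme genes with a window 4 of 108 held the motif (Ccdc151, Cfap298, Iqca and 1 other), and among transport, gate and basal body genes 6 of 112. With fewer fixed letters (GTNNCC, then NN, then GGNNAC, which every match of the first motif also fits), the shares were 6.90%, 1.77% and 2.03%, and 1.88% of all windows. This looser motif stood before Ccno and Odf3b, both of which are described with the cilium genes.
Ccno: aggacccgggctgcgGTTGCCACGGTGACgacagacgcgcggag
Odf3b: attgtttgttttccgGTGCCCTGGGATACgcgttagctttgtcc
They lie at chr13:112987568-112987611 (plus strand) and chr15:89379273-89379316 (minus strand). A match is only a string of letters and was not read as a bound site.

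Depth was 27.4 to 33.4 M counts for the knockout libraries and 29.1 to 40.1 M for the wild types, and 16223 to 16596 genes were detected in each. All 7 ependymal markers fixed for the check of the culture (Foxj1, S100b, Ccdc153, Tmem212, Rarres2, Dnah5 and Cfap126) passed the filter. Levels are CPM (counts per 1 M counts) after TMM scaling, as lowest to highest library with the median. Some libraries stood apart. Genes of the oligodendrocyte lineage were high in knockout replicates 1 to 3 and wild-type replicates 1 and 2, and mitosis genes were high in replicates 1 to 3 of both groups. Wild-type replicates 1 and 5 had the lowest levels of motile cilium genes among wild types. Results that rest on these libraries are given with and without them.

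Of the genes tested, 32.3% were called at an adjusted p below 0.05 in edgeR's quasi-likelihood test, 18.4% lower in knockouts (2638 genes) and 13.9% higher (1988). A fall of at least 2-fold was called in 3.11% and a rise of that size in 0.433%. All 6 knockouts lay below all 8 wild types in 6.93% of the genes and above them in 3.58%. Of the tested genes, 47 reached the filter's level in no knockout and were therefore bound to be lower, and all 47 were called lower. Where such genes are members of a list below, its counts include them.

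The Rfx2 gene (chromosome 17, 56775897 to 56831013, minus strand) was read at 43.2 to 55.3 CPM (median 48.2) in knockouts and at 83.0 to 129 CPM (median 111) in wild types, with no overlap. The log2 difference was -1.13 (SE 0.10, adjusted p = 1.34e-05, edgeR). Reads were counted over the whole gene, so they check the label without showing how much intact Rfx2 mRNA was left. Among the other RFX genes, Rfx3 was measured at 167 to 210.4 CPM (median 188) in knockouts and 141 to 239.8 CPM (median 198) in wild types (log2 difference -0.06, adjusted p = 0.652 in edgeR), so the groups overlapped and the difference was not called. Rfx1 was 52.9 to 66.3 CPM (median 58.4) in knockouts and 50.6 to 71.8 CPM (median 64.9) in wild types (-0.11, adjusted p = 0.220), and was called lower only without wild-type replicate 1 (adjusted p = 0.0325). Over the family and its cofactors 2 of 9 tested genes were called lower, Rfx2 and Rfx8, the latter at under 2 CPM in every library (-0.89, adjusted p = 0.0434). The call of Rfx8 was lost with the replicate block (adjusted p = 0.103) and without knockout replicate 1, 2, 3, 4 or 5 or wild-type replicate 1, 3, 5 or 8 (adjusted p between 0.0509 and 0.0926).

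Several factors that drive multiciliation were lower. Of 16 tested regulators 8 fell and 0 rose, with a median log2 difference of -0.35, against 0.01 over all genes tested. Of all genes 18.4% fell and 13.9% rose. No regulator was higher at an unadjusted p below 0.05 (0 genes), nor was any called higher by DESeq2 or limma-voom (0 and 0), but 1 was called higher with the replicate block and 1 with the oligodendrocyte term. Foxj1 was read at 638 to 815 CPM (median 756) in knockouts and 803 to 1507 CPM (median 1152) in wild types (-0.62, SE 0.11, adjusted p = 0.000978), and only knockout replicate 4, the highest, exceeded wild-type replicate 1, the lowest. Mcidas, a cofactor that switches on the programme, was 11.9 to 23.002 CPM (median 18.2) in knockouts and 25.5 to 89.0 CPM (median 47.9) in wild types (-1.49, SE 0.24, adjusted p = 0.000480), with no overlap. Ccno, a cyclin-like protein needed for centriole amplification, was 23.4 to 49.8 CPM (median 38.4) against 46.8 to 142 CPM (median 84.3) (-1.18, adjusted p = 0.00109), where the highest knockout lay above the lowest wild type. Foxn4, a forkhead factor of multiciliated cells, was 2.22 to 4.67 CPM (median 4.25) against 6.40 to 29.6 CPM (median 14.9) (-1.95, SE 0.31, adjusted p = 0.000430), also with no overlap. In bulk RNA, fewer cells of a type and less RNA per cell cannot be told apart, here or in the results that follow.

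**Figure D1:**
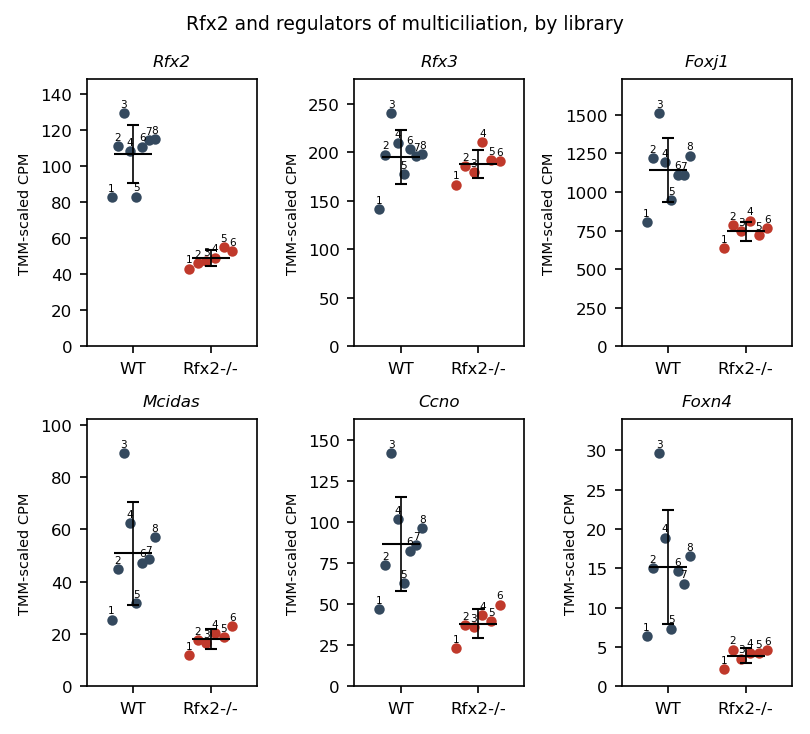
Level in TMM-scaled CPM (vertical axes, from 0) of Rfx2, Rfx3 and 4 regulators in each wild-type (n = 8) and Rfx2-/- (n = 6) library; points are libraries marked with their replicate number, and bars are mean and SD. Mcidas knockouts sit between 11.9 and 23.002 CPM, all below the lowest wild type at 25.5, and wild-type replicates 1 and 5 are the 2 lowest wild types for Rfx2, Foxj1, Mcidas and Ccno.

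The genes that make and dock basal bodies followed. Of 27 genes of centriole amplification and the deuterosome, the body on which new centrioles form, 22 fell and 0 rose (median -0.54). The shares over all genes were 18.4% lower and 13.9% higher. Deup1, which builds the deuterosome, was 57.1 to 106 CPM (median 88.2) in knockouts and 80.4 to 277 CPM (median 159) in wild types (-0.92, SE 0.23, adjusted p = 0.00712, edgeR), and the groups overlapped. Ccdc78, another deuterosome protein, was 1.03 to 1.96 CPM (median 1.49) against 2.65 to 15.99 CPM (median 8.88) (-2.61, SE 0.34, adjusted p = 0.000131). It is among the largest falls described below, which were chosen for having no overlap. Mdm1, a centriolar protein that binds microtubules, was 18.503 to 24.1 CPM (median 21.2) against 30.1 to 119.7 CPM (median 58.2) (-1.52). Of 27 basal body and docking genes 18 fell and 0 rose (median -0.39). Among them Odf3b, a protein related to outer dense fibres, was 10.8 to 16.2 CPM (median 12.5) in knockouts and 28.7 to 79.9 CPM (median 52.9) in wild types (-2.03, SE 0.22, adjusted p = 4.54e-05). Cep128, of the subdistal appendages, was 36.0 to 46.2 CPM (median 40.6) against 59.1 to 166 CPM (median 102) (-1.33). In Mdm1, Odf3b and Cep128 every knockout lay below every wild type.

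Most genes of the motile axoneme fell. Of 146 listed genes 133 were tested, 122 of them fell, 0 rose, and the median log2 difference was -0.86. Over all genes 18.4% fell and 13.9% rose, and these shares also stand beside the parts of the axoneme below. In 74 of the 133, against 6.93% of all genes, no knockout overlapped a wild type. The count of genes lower ran from 115 to 122 when single libraries were left out. By part of the axoneme, 12 of 14 outer dynein arm genes fell (median -0.81), 11 of 13 inner dynein arm genes (-0.83), 18 of 19 dynein assembly factors (-0.75) and 4 of 5 genes that dock the outer arms (-0.64). The outer arm genes that fell include Nme8, at 0.0369 to 0.122 CPM in knockouts and 0.251 to 0.739 CPM in wild types. Nme8 passed the filter only through the wild types and was bound to be lower, yet it counts in the 122 and the 74. Among radial spoke genes 15 of 16 fell (-0.96), as did 18 of 18 central pair genes (-1.13), 19 of 20 genes of the nexin link and axonemal ruler (-0.88) and 25 of 28 genes of microtubule inner proteins (-0.91). None of these lists had a member called higher over all 14 libraries, and of the 133 genes 0 were higher at an unadjusted p below 0.05 and 0 were called higher by DESeq2 or by limma-voom. An outer arm gene was called higher (1 of the 133) without wild-type replicate 1 and with the length trend removed.

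In the dynein arms, the motors of beating, Dnaic2, an outer-arm intermediate chain, was 24.3 to 35.002 CPM (median 29.2) in knockouts and 43.9 to 142 CPM (median 90.2) in wild types (-1.52, SE 0.23, adjusted p = 0.000325, edgeR). Dnah6, an inner-arm heavy chain, was 162 to 215 CPM (median 197) against 238 to 705 CPM (median 495) (-1.27, SE 0.21, adjusted p = 0.000465). Wdr63, an inner-arm intermediate chain, was 18.8 to 31.7 CPM (median 25.6) against 37.8 to 147 CPM (median 72.6) (-1.64). Knockouts did not overlap wild types in any of these 3. The assembly factors Dyx1c1 and Pih1d2, which help fold dynein arms in the cytoplasm, were at 8.72 to 11.7 CPM (median 10.5) against 14.9 to 38.5 CPM (median 23.3) (-1.19) and 24.4 to 30.3 CPM (median 27.5) against 36.1 to 69.0 CPM (median 51.9) (-0.89). Of the docking complex, Ccdc151, whose X-box window is printed above, was 33.3 to 41.1 CPM (median 39.7) in knockouts and 46.3 to 94.1 CPM (median 69.0) in wild types (-0.81, SE 0.13, adjusted p = 0.000494), and Ttc25 was 31.2 to 39.2 CPM (median 36.6) against 41.9 to 75.4 CPM (median 61.0) (-0.70). Cfap298, an assembly factor with an X-box window above, was 46.1 to 57.0 CPM (median 54.7) against 59.7 to 103 CPM (median 85.3) (-0.63). In these genes too the groups did not overlap.

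In the radial spokes, which pass signals from the central pair to the dynein arms, Ak8, an adenylate kinase, was 9.12 to 12.9 CPM (median 10.3) in knockouts and 16.1 to 48.5 CPM (median 32.3) in wild types (-1.52, SE 0.21, adjusted p = 0.000166, edgeR), and Rsph10b was 40.9 to 55.6 CPM (median 49.4) against 60.0 to 142 CPM (median 106) (-1.02). The central pair protein Cfap65 showed the larger fall, to 43.0 to 67.3 CPM (median 57.3) from 94.1 to 392.4 CPM (median 202) (-1.87, SE 0.28, adjusted p = 0.000288). Cfap74, of the same structure, was 47.3 to 68.4 CPM (median 63.9) against 78.3 to 226 CPM (median 146) (-1.21). Drc3, of the nexin link that joins neighbouring doublets, was 52.1 to 67.7 CPM (median 58.3) against 87.9 to 273 CPM (median 157) (-1.43), and Cfap100, which tethers an inner arm, was 53.2 to 68.5 CPM (median 56.4) against 84.4 to 129 CPM (median 117) (-0.95). Inside the doublets, Fam166b was 3.46 to 4.43 CPM (median 3.92) against 9.23 to 26.4 CPM (median 20.1) (-2.24, SE 0.21, adjusted p = 1.93e-05), and the tektin Tekt1 was 28.4 to 40.6 CPM (median 35.004) against 44.0 to 115 CPM (median 73.4) (-1.06). None of these 8 genes overlapped between groups. Iqca, a nexin link protein with an X-box window above, did overlap, at 12.999 to 19.5 CPM (median 16.8) against 16.8 to 56.5 CPM (median 35.3) (-1.002, adjusted p = 0.00426).

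The medians of the axonemal lists ran from -0.64 for outer-arm docking to -1.13 for the central pair, and those of transport and the ciliary gate were nearer 0. Differences between lists were not tested. Over IFT, kinesin-2, transition zone, BBSome, deuterosome and basal body genes together, 135 were listed and 129 tested. Of these 100 fell, beside 18.4% of all genes, 1 rose and the median was -0.42. In 43 of the 129, against 6.93% of all genes, the groups did not overlap, with all knockouts lower.

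Of 18 IFT-B genes, which carry cargo to the tip, 16 fell and 0 rose (median -0.49). Ift20 was 45.3 to 47.8 CPM (median 47.0) in knockouts and 53.2 to 91.6 CPM (median 69.6) in wild types (-0.61, SE 0.09, adjusted p = 0.000242, edgeR), and Rabl2, a small GTPase that binds the trains, was 37.1 to 45.7 CPM (median 43.5) against 50.1 to 90.7 CPM (median 73.1) (-0.72). Ttc26, whose X-box window is printed above, was 30.7 to 36.8 CPM (median 33.3) against 33.99 to 73.5 CPM (median 51.4) (-0.62, adjusted p = 0.00187), and its groups overlapped. Of 5 kinesin-2 genes 4 fell (median -0.26), among them Kifap3, the motor's accessory subunit, at 124 to 139 CPM (median 131) against 142 to 179 CPM (median 157) (-0.26). Of 12 genes of IFT-A and dynein-2, which return the trains, 11 fell (median -0.48). Ift43 was 33.9 to 40.8 CPM (median 35.2) against 44.3 to 62.1 CPM (median 54.2) (-0.56, SE 0.07, adjusted p = 0.000128), Ift140 107 to 127 CPM (median 117) against 135 to 246 CPM (median 188) (-0.67), and Wdr34, a dynein-2 intermediate chain, 54.9 to 63.2 CPM (median 59.9) against 68.7 to 90.4 CPM (median 81.4) (-0.42). In all of these but Ttc26 the groups did not overlap.

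At the base of the cilium, 19 of 25 transition zone genes fell and 0 rose (median -0.48), although 1 was called higher with the replicate block. Tmem107 was 34.4 to 45.2 CPM (median 41.1) in knockouts and 48.6 to 102 CPM (median 72.9) in wild types (-0.83, SE 0.14, adjusted p = 0.000678, edgeR), and B9d1 was 39.7 to 47.7 CPM (median 42.8) against 48.2 to 67.6 CPM (median 60.5) (-0.48). Of 15 genes of the BBSome, a coat for membrane cargo, and its partners, 10 fell and 1 rose (median -0.28). Bbs7, with an X-box window above, was 36.7 to 44.9 CPM (median 39.6) against 45.6 to 82.7 CPM (median 59.6) (-0.59, adjusted p = 0.00128), and Arl6, the GTPase that recruits the coat, was 33.5 to 38.8 CPM (median 35.2) against 40.6 to 59.2 CPM (median 51.6) (-0.50). The member that rose was Bbs12, a chaperonin-like protein, at 12.3 to 13.7 CPM (median 13.2) against 10.3 to 13.01 CPM (median 11.9) (0.15, adjusted p = 0.0430). Its call was lost with the replicate number as a block (adjusted p = 0.0623) and without knockout replicate 1, 3, 5 or 6 or wild-type replicate 2, 3 or 4 (adjusted p between 0.0537 and 0.0737). Within replicates 4 and above it was 0.249.

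Kinesins and kinases of the cilium had 15 of 18 members lower and 1 higher (median -0.63), beside 18.4% and 13.9% over all genes. Kif19a, which shortens ciliary microtubules at the tip, was 2.88 to 7.33 CPM (median 4.80) in knockouts and 10.7 to 36.7 CPM (median 24.8) in wild types (-2.20, SE 0.28, adjusted p = 0.000105, edgeR). Kif6 was 16.7 to 23.2 CPM (median 19.04) against 28.5 to 64.5 CPM (median 48.1) (-1.20), and Mapk15, a kinase at basal bodies, was 33.3 to 50.9 CPM (median 42.4) against 65.4 to 128 CPM (median 93.5) (-1.17). None of the 3 overlapped. Ick, a kinase that limits the length of cilia, was higher, at 56.4 to 59.1 CPM (median 58.1) against 49.8 to 57.9 CPM (median 52.3) (0.13, adjusted p = 0.00931). Its call was lost with the replicate block (0.0611) and in the fit of all 34 libraries (0.137).

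Calls among the tubulins went both ways. Over all genes 18.4% were lower and 13.9% higher, so the tubulin counts are not read as a result about these genes. Of 12 tested, only Tubb4b, the main beta tubulin of axonemes, fell, to 219 to 249 CPM (median 232) from 278 to 526 CPM (median 365) (-0.68, SE 0.12, adjusted p = 0.000678, edgeR). It had no overlap between groups. Of the tubulins 3 rose, and the one with the smallest p was Tubb4a, at 40.2 to 54.5 CPM (median 45.0) against 26.9 to 36.7 CPM (median 32.8) (0.48, adjusted p = 0.000507). The list median was 0.12, and the number higher ran from 1 (within replicates 4 and above) to 4 over the alternatives. Enzymes that modify tubulin were lower, 15 of 20 with 0 higher (median -0.49). Ttll13, a polyglutamylase, was 2.52 to 3.89 CPM (median 3.16) against 5.42 to 8.99 CPM (median 6.86) (-1.12), Ttll3, a glycylase, 94.7 to 137 CPM (median 114) against 139.8 to 265 CPM (median 224) (-0.89), and Agbl2, which removes glutamates, 27.7 to 35.5 CPM (median 32.8) against 40.5 to 84.4 CPM (median 61.5) (-0.90). None of these 3 overlapped.

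**Figure D2:**
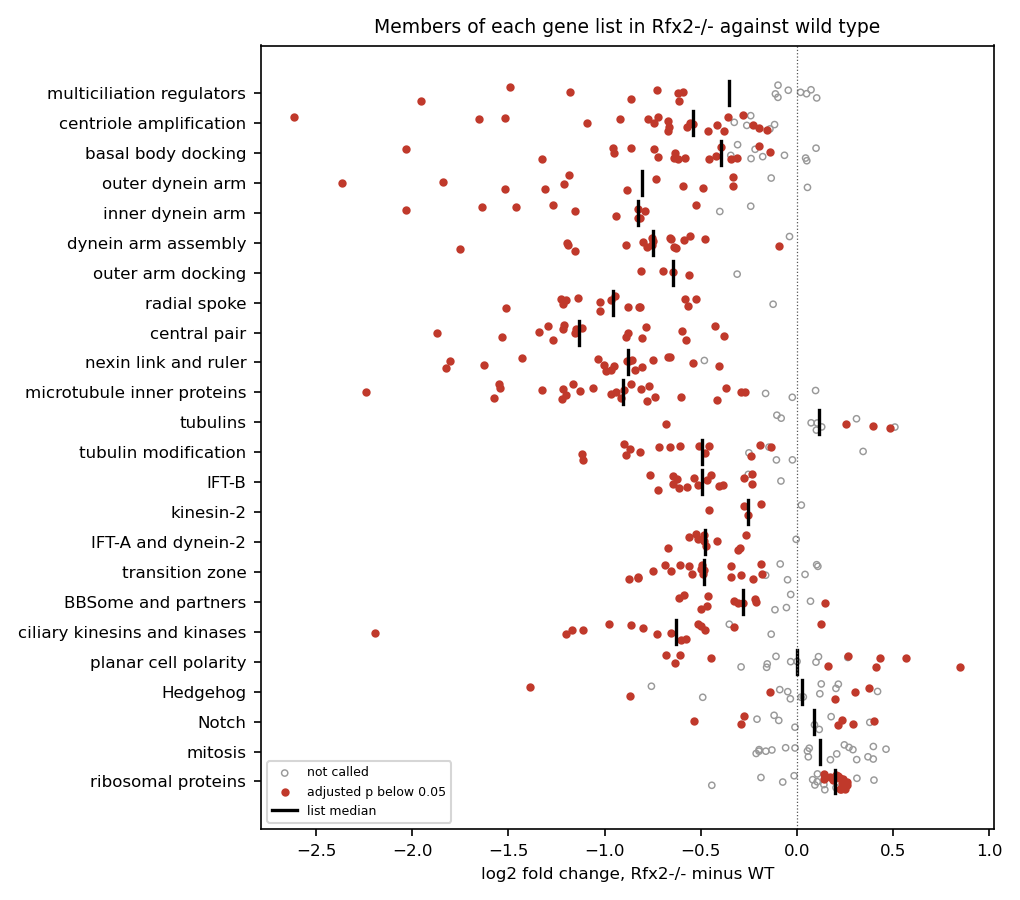
Log2 fold change of each tested member of 24 gene lists (horizontal axis, Rfx2-/- minus WT; filled points have an adjusted p below 0.05, open points do not, and black bars are list medians; vertical scatter within a row is only for legibility). The axonemal lists sit to the left, with the central pair at a median of -1.13, while tubulins, polarity, Hedgehog, Notch and mitosis genes spread around 0.

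Wild-type libraries varied more than knockouts in these genes. The SD of log2 CPM was larger among wild types in 127 of the 133 axoneme genes (95.5%), with medians of 0.43 in wild types and 0.17 in knockouts, against 55.7% of all genes tested with medians of 0.13 and 0.12. The summed CPM of the axoneme list was 5625 in knockout replicate 1 and 6411 to 7009.8 in the others. In wild types it was 7343 in replicate 1, 8135 in replicate 5, between 10704 and 12894 in replicates 2, 4, 6, 7 and 8, and 16675 in replicate 3. The groups therefore did not overlap, but wild-type replicate 1 was closer to the knockouts than to the wild-type median of 11836. Replicate 1 was the lowest wild type for 89 of the 133 genes and replicate 5 for 38, while replicate 3 was the highest for 125. Over all genes tested, replicate 1 was the lowest wild type for 23.9%, replicate 5 for 19.3%, and replicate 3 the highest for 26.1%. Without wild-type replicate 1, or without replicate 5, Rfx8 was the 1 named gene that lost its call.

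The mitosis list split the libraries by replicate number, as did the oligodendrocyte list except for wild-type replicate 3. The comparison was therefore also made within replicates 1 to 3 (3 knockouts, 3 wild types) and within replicates 4 and above (3 and 5). The sets share no library. Mean log2 CPM of the oligodendrocyte lineage was 2.65 in wild-type replicate 3, against 3.77 and 4.15 in wild-type replicates 1 and 2. The first set is therefore uneven in that lineage. Among 14192 genes tested in both, 670 were called lower in replicates 1 to 3 and 2144 in the later ones, and 520 were called lower in both, which is 77.6% of the first and 24.3% of the second. For genes called higher these were 374, 1792 and 219 (58.6% and 12.2%). The axoneme list had a median of -0.98 in replicates 1 to 3 with 16 of 133 genes called lower, and of -0.79 in the later replicates with 116 called lower. In the lists of the cilium and its basal bodies, between 0 and 5 members each were called lower in replicates 1 to 3. Of the 118 called genes named in the text, 60 were called in replicates 1 to 3 and 112 in the later replicates, and all of them kept their direction in both. Mitosis genes moved in opposite directions in these sets. Of 20 tested, 0 were called over all libraries by edgeR, DESeq2 or limma-voom and 0 had an unadjusted p below 0.05, but 5 were called higher within replicates 1 to 3 and 8 lower within replicates 4 and above. Their summed CPM was 1324 to 1456 in knockout replicates 1 to 3 and 1049.9 to 1217 in wild-type replicates 1 to 3. In the later replicates it was 553 to 716 in knockouts and 767 to 925 in wild types. The difference between the sets was not tested.

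**Figure D3:**
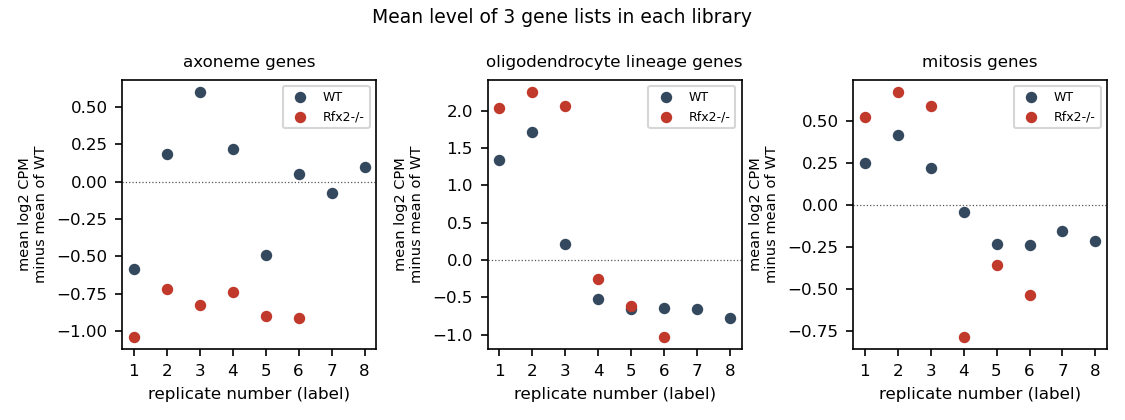
Mean log2 CPM of 3 gene lists in each library, relative to the mean of the 8 wild types (vertical axes), by replicate number (horizontal axes; numbers are labels without order). Axoneme genes lie between -1.04 and -0.72 in knockouts and between -0.58 and 0.60 in wild types, whereas oligodendrocyte lineage genes are high in knockout replicates 1 to 3 and wild-type replicates 1 and 2, and mitosis genes in replicates 1 to 3 of both groups.

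The largest falls are given first, among called genes that averaged at least 1 on the log2 CPM scale and had no overlap between groups, predicted genes left out. Tmem212, a membrane protein used as an ependymal marker, had the largest fall of these, at 0.0369 to 0.332 CPM (median 0.144) in knockouts and 0.631 to 11.1 CPM (median 5.02) in wild types (-5.10, SE 0.62, adjusted p = 8.05e-05, edgeR). Its knockout levels are near the count floor and it passed the filter through the wild types, so the size of this fall is uncertain. Jhy, a gene whose loss gives hydrocephalus in mice, was 0.699 to 1.16 CPM (median 0.867) against 2.50 to 9.47 CPM (median 6.15) (-2.63, SE 0.30, adjusted p = 5.77e-05). Ccdc153, a nexin link protein and ependymal marker, was 5.57 to 16.2 CPM (median 9.88) against 17.5 to 112 CPM (median 53.0) (-2.45). Since that rule chose the 15 genes, the absence of overlap is no result. Of the others, Gprc5c, an orphan G protein-coupled receptor, was 2.56 to 4.09 CPM (median 2.81) against 7.09 to 21.4 CPM (median 14.2) (-2.27, SE 0.22, adjusted p = 2.09e-05). Lpar3, a receptor for lysophosphatidic acid, was 0.626 to 1.53 CPM (median 1.08) against 2.19 to 9.57 CPM (median 5.67) (-2.44). Qrfp, which encodes a neuropeptide, was 0.597 to 0.995 CPM (median 0.758) against 1.10 to 7.58 CPM (median 4.51) (-2.49). Spata18, a protein of mitochondrial quality control, was 7.33 to 10.995 CPM (median 8.12) against 16.2 to 92.0 CPM (median 38.8) (-2.34), and Col26a1, a collagen chain, was 1.73 to 3.48 CPM (median 2.62) against 5.60 to 26.5 CPM (median 13.05) (-2.52). Crip3, a LIM-domain protein, was 1.43 to 2.87 CPM (median 2.07) against 3.93 to 26.9 CPM (median 10.6) (-2.53), and Nhlrc4, an NHL-repeat protein, was 1.44 to 2.96 CPM (median 1.67) against 3.99 to 16.6 CPM (median 9.66) (-2.31). The remaining genes of this set were Cdhr4, Ccdc33, Musk, Ccdc121 and Ccdc78, with log2 differences of -3.77, -3.42, -3.18, -2.67 and -2.61.

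The largest rises were smaller in size than the largest falls. Kcnc1, a voltage-gated potassium channel, was 18.1 to 21.7 CPM (median 18.9) in knockouts and 5.48 to 10.1 CPM (median 6.49) in wild types (1.47, SE 0.12, adjusted p = 8.58e-06, edgeR). Cadps, which primes dense-core vesicles for release, was 10.7 to 17.4 CPM (median 13.99) against 2.83 to 8.80 CPM (median 5.82) (1.22). B3gat1, the enzyme that makes the HNK-1 sugar epitope, was 20.5 to 32.5 CPM (median 29.4) against 9.18 to 18.51 CPM (median 13.4) (1.10). Lrp1b, a large receptor of the LDL receptor family, was 44.7 to 54.1 CPM (median 51.8) against 15.9 to 34.1 CPM (median 22.9) (1.07). Cpxm2, a carboxypeptidase-like secreted protein, was 44.2 to 60.6 CPM (median 56.8) against 13.9 to 36.3 CPM (median 19.6) (1.32, SE 0.19, adjusted p = 0.000251). Fmo1, a flavin monooxygenase, was 8.48 to 11.4 CPM (median 9.31) against 3.61 to 6.03 CPM (median 4.26) (1.08), and Sphkap, an anchoring protein of protein kinase A, was 6.33 to 10.2 CPM (median 8.49) against 2.55 to 4.99 CPM (median 3.67) (1.23). Fndc9, a fibronectin-domain protein, was 10.8 to 13.1 CPM (median 11.8) against 2.93 to 6.23 CPM (median 4.15) (1.46, SE 0.15, adjusted p = 3.72e-05). Fam184b and Fam107a had log2 differences of 1.38 and 1.03, and Nwd2, Prmt8, Rtp1, Apln and Adamts3 of 2.29, 1.95, 1.73, 1.64 and 1.61. Outside this set, Btbd17, which has an X-box window above, was 1.18 to 1.68 CPM (median 1.498) against 0.564 to 1.22 CPM (median 0.731) (0.88, adjusted p = 0.00194). In Btbd17 the groups overlapped.

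**Figure D4:**
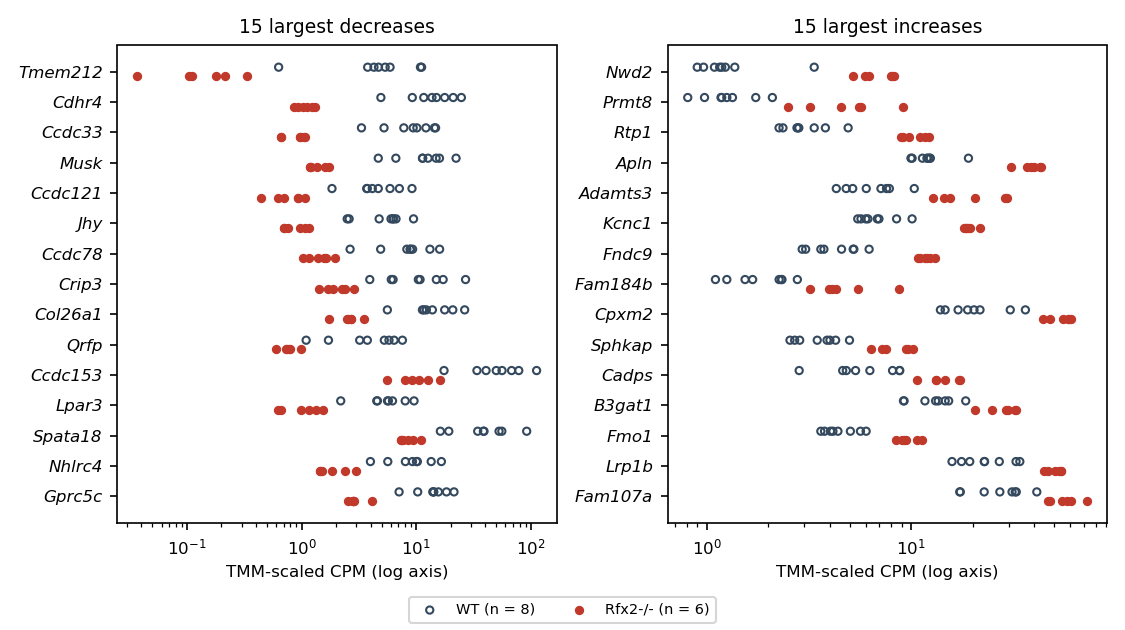
Level of the 15 largest decreases (left) and increases (right) in each library, in TMM-scaled CPM on a log axis; open points are the 8 wild types and filled points the 6 Rfx2-/- libraries. Knockouts lie left of all wild types in the left panel and right of them in the right panel, as the rule of choice required, and the falls reach further, with Tmem212 at a log2 difference of -5.10 and Nwd2 at 2.29. Knockout levels of Tmem212 are near the count floor.

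Planar cell polarity genes, which orient the beating of cilia and the cell layer, went both ways. Of 19 tested 6 rose and 4 fell (median 0.00). Vangl2, a core membrane protein of the pathway, was 196 to 239 CPM (median 216) in knockouts and 109.7 to 145 CPM (median 117) in wild types (0.85, SE 0.07, adjusted p = 6.01e-06, edgeR), and it was higher in 6 of 6 knockouts. Celsr1, an atypical cadherin of the same core, was 149.9 to 169.9 CPM (median 159) against 90.1 to 137 CPM (median 119) (0.43, SE 0.08, adjusted p = 0.000765). Both genes had no overlap. Fat4, a giant cadherin, was 103 to 145 CPM (median 120.0) against 70.6 to 108 CPM (median 80.4) (0.57). The 4 that fell were Wdpcp, which also serves the ciliary base, at 25.9 to 29.2 CPM (median 28.1) against 33.4 to 59.6 CPM (median 44.1) (-0.68, adjusted p = 0.000463), Vangl1 at 18.8 to 26.0 CPM (median 22.6) against 26.9 to 45.9 CPM (median 33.6) (-0.61), Ankrd6 (-0.45) and Dchs1 (-0.63). The call of Dchs1 was lost within replicates 4 and above (adjusted p = 0.197), and with the length trend removed 7 members fell. In the Hedgehog pathway 3 of 18 rose and 3 fell (1 without knockout replicate 1 or 3), and in the Notch pathway 4 of 15 rose and 3 fell, beside 13.9% higher and 18.4% lower over all genes. These counts moved with the setting: 6 Hedgehog genes rose with the oligodendrocyte term and 1 fell with limma-voom, and in the fit of all 34 libraries 1 Notch gene rose and 0 fell. Gpr161, a ciliary receptor that restrains Hedgehog signalling, was 46.8 to 55.1 CPM (median 50.03) against 34.6 to 44.4 CPM (median 39.2) (0.37, SE 0.05, adjusted p = 0.000198), with no overlap.

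In the list of ependymal markers, some of which also serve cilia, 19 of 27 fell and 2 rose (median -0.75). Among all genes 18.4% fell and 13.9% rose. Cd24a, a surface protein of ependymal cells, was 144 to 192 CPM (median 161) in knockouts and 268 to 393 CPM (median 368) in wild types (-1.06, SE 0.10, adjusted p = 1.93e-05, edgeR). Hdc, the enzyme that makes histamine, was 7.67 to 13.2 CPM (median 10.1) against 14.98 to 49.8 CPM (median 31.7) (-1.64), and Rarres2, which encodes chemerin, was 16.5 to 19.7 CPM (median 18.1) against 21.2 to 35.5 CPM (median 31.9) (-0.75). These 3 did not overlap. The 2 that rose were Cdh2, N-cadherin, at 661 to 837 CPM (median 687) against 508 to 696 CPM (median 579) (0.28), and Aqp4, a water channel of astrocytes and ependyma, at 774 to 1231 CPM (median 1012) against 569 to 949.9 CPM (median 777) (0.38, adjusted p = 0.0372). The call of Aqp4 was lost within replicates 4 and above (adjusted p = 0.355) and without knockout replicate 1, 2 or 3 or wild-type replicate 3, 4, 6 or 8 (adjusted p between 0.0552 and 0.0802).

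Markers of other cell types went both ways. Of 14 radial glia genes, which mark the embryonic stem cells of the ventricular wall, 2 fell and 3 rose. Over all genes 18.4% fell and 13.9% rose, so the radial glia counts were near those shares. Nes, the intermediate filament nestin, was 236 to 459 CPM (median 392.04) in knockouts and 592 to 825 CPM (median 777) in wild types (-1.02, SE 0.13, adjusted p = 9.88e-05, edgeR), with no overlap, and Hopx had medians of 9.58 and 13.6 CPM in overlapping groups (-0.60, adjusted p = 0.0163; not called within replicates 4 and above, adjusted p = 0.0773). Egfr, a growth factor receptor, rose to 120.4 to 131 CPM (median 126) from 81.8 to 117 CPM (median 91.7) (0.39, SE 0.07, adjusted p = 0.00109), with no overlap. Slc1a3, a glial glutamate transporter, also rose (0.25, adjusted p = 0.0314). Its call was lost without knockout replicate 1, 2 or 3 or wild-type replicate 3 or 4 (adjusted p between 0.0511 and 0.0610) and within replicates 4 and above (0.342). Of 17 astrocyte genes 7 rose and 2 fell, and the number higher ran from 3 to 9 without single libraries: it was 3 without knockout replicate 1 or 3 or wild-type replicate 3 or 4, and 4 without knockout replicate 2 or wild-type replicate 6 or 8. It was 2 within replicates 4 and above, and the number lower was 1 or 2 without single libraries, 1 in all but those without wild-type replicate 1, 3 or 4. Glul, glutamine synthetase, was 485 to 529 CPM (median 514) against 343 to 465 CPM (median 397) (0.34), Hepacam, a glial adhesion protein, 322 to 361 CPM (median 353) against 240.3 to 304 CPM (median 286) (0.31), and S100b, a marker shared with ependyma, 5.16 to 15.4 CPM (median 11.8) against 16.6 to 38.2 CPM (median 27.3) (-1.33). Gfap, the astrocyte filament, was 3303 to 7437 CPM (median 4905) against 2572 to 5691 CPM (median 4559) and was not called (adjusted p = 0.410).

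Of 16 genes of the oligodendrocyte lineage 1 rose and 1 fell, beside 13.9% and 18.4% over all genes. The list median was nevertheless 1.07, and 5 members rose with the replicate block. The number that rose was 0 without knockout replicate 1 or 2, 2 without knockout replicate 4, 3 without knockout replicate 5 or 6 or wild-type replicate 1, and 5 without wild-type replicate 2. Their summed CPM was 672 to 793 in knockout replicates 1 to 3 and 626 and 732 in wild-type replicates 1 and 2, against 334 to 383 in the other knockouts and 434 to 515 in the other wild types. Pdgfra, a marker of the precursors, was 1.77 to 100.3 CPM (median 34.9) in knockouts and 1.95 to 87.6 CPM (median 3.31) in wild types (adjusted p = 0.492). Cnp, an enzyme of myelin that other cells also make, fell to 204 to 246 CPM (median 216) from 265 to 361 CPM (median 323) (-0.53, adjusted p = 0.000282), with no overlap. With the level of this lineage as a term in the fit, 2960 genes were called lower and 2544 higher. In that fit the calls of Aqp4, Slc1a3 and Rfx8 were lost (adjusted p = 0.0629, 0.0551 and 0.0744, edgeR). Among microglia genes 0 of 16 were called by edgeR, DESeq2 or limma-voom, 0 had an unadjusted p below 0.05, and their summed CPM ran from 755 to 2264 in knockouts and from 736 to 2141 in wild types. Map2, a neuronal microtubule protein and the 1 neuronal gene of 14 called, rose to 798 to 845 CPM (median 818) from 579.9 to 702 CPM (median 635) (0.37, SE 0.04, adjusted p = 7.31e-05), with no overlap. Of the neuronal genes 4 rose with the replicate block, 2 without wild-type replicate 2 or 5, and 1 fell without knockout replicate 6 or wild-type replicate 1. Ttr and Kl of the choroid plexus, Pecam1, Cdh5 and Cldn5 of endothelium and Lum of fibroblasts were below the filter. Apart from the fit with the oligodendrocyte term, the part of these cells in the results was not tested.

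**Figure D5:**
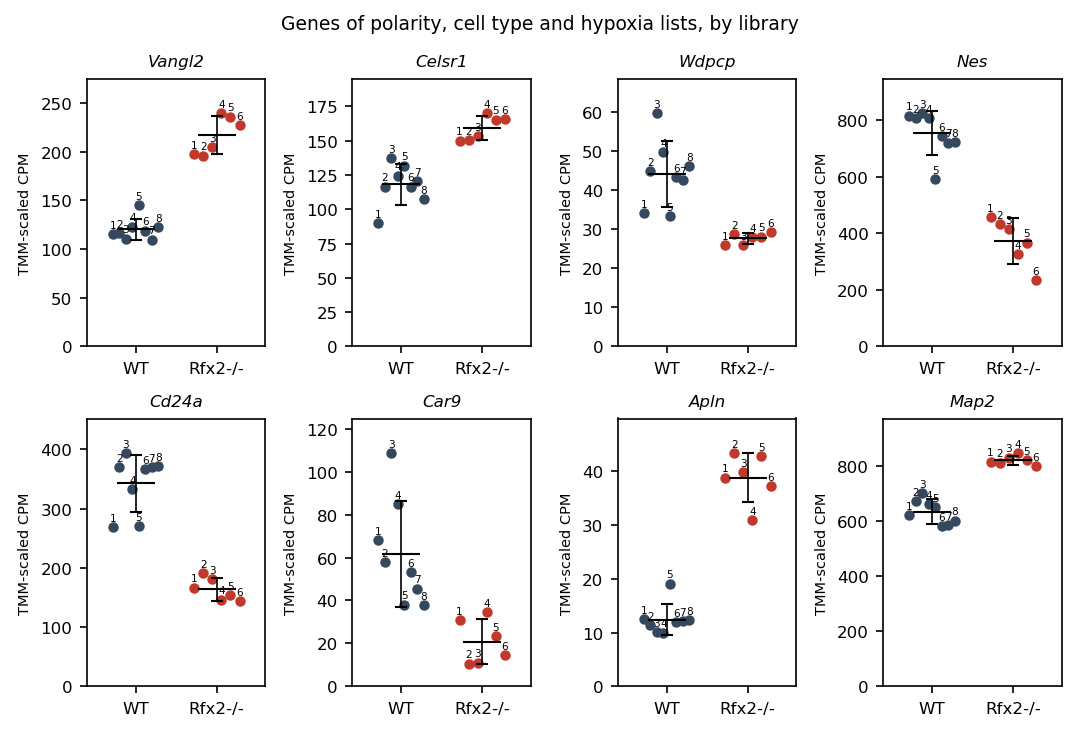
Level in TMM-scaled CPM (vertical axes, from 0) of 8 genes in each wild-type (n = 8) and Rfx2-/- (n = 6) library; points carry replicate numbers, and bars are mean and SD. Vangl2, Celsr1, Apln and Map2 are higher and Wdpcp, Nes, Cd24a and Car9 lower in all 6 knockouts than in any wild type, and wild-type replicate 5 lies nearest the knockouts for Vangl2, Nes and Apln. The rule that chose Apln required the gap between its groups.

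Among 16 hypoxia genes 4 fell and 3 rose, near the 18.4% and 13.9% over all genes, with 2 lower without knockout replicate 3 or wild-type replicate 6 and 5 higher without wild-type replicate 5. Car9, a carbonic anhydrase of the cell surface, was 10.6 to 34.6 CPM (median 19.02) in knockouts and 37.8 to 108 CPM (median 55.5) in wild types (-1.57, SE 0.33, adjusted p = 0.00227, edgeR), and Slc2a1, a glucose transporter, was 157 to 192 CPM (median 175) against 211 to 281 CPM (median 243) (-0.50). Apln, a peptide hormone of vessels that hypoxia induces elsewhere, went the other way, at 30.8 to 43.2 CPM (median 39.3) against 9.99 to 19.1 CPM (median 12.03) (1.64, SE 0.13, adjusted p = 6.01e-06). In Car9 and Slc2a1 the groups did not overlap, while Apln was chosen by a rule that required no overlap. In the extracellular matrix 3 of 22 genes fell and 3 rose, Adamts3 among them, a smaller share than the 32.3% called over all genes. Of those that fell, the chains of basement membrane collagen Col4a1 and Col4a2 were 101 to 149.7 CPM (median 114) against 177 to 226 CPM (median 193) (-0.71, SE 0.08, adjusted p = 5.57e-05) and 44.8 to 75.2 CPM (median 52.6) against 80.6 to 107 CPM (median 91.1) (-0.71), and Col5a1 was 38.5 to 54.2 CPM (median 42.8) against 57.5 to 78.1 CPM (median 73.6) (-0.67). All 3 were lower in every knockout than in any wild type. Phgdh, the first enzyme of serine synthesis, was 46.3 to 54.6 CPM (median 49.2) against 28.4 to 42.8 CPM (median 31.8) (0.57, adjusted p = 0.000186). Of 30 ribosomal protein genes 16 rose and 0 fell, by small amounts (median 0.20), with 12 to 20 higher without single libraries and 6 in a fit of all 34 libraries. Within replicates 1 to 3, 0 were called higher, and within replicates 4 and above 16 were. Rpl23 was 37.5 to 42.2 CPM (median 39.5) against 30.8 to 37.8 CPM (median 32.9) (0.25) and Rpl15 26.7 to 30.4 CPM (median 28.3) against 22.8 to 26.5 CPM (median 24.3) (0.22). The calls of Rpl23 and Rpl15 were lost within replicates 1 to 3 (adjusted p = 0.208 and 0.157, edgeR).

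Among the largest falls in level per kb of exon length, Foxj1 fell from 435 to 284 CPM per kb (group means), Dynlrb2, a dynein light chain, from 174 to 76.5 and Lrrc23, a radial spoke protein, from 126 to 53.9. Erlin2, a membrane protein of the endoplasmic reticulum, was 604 to 844 CPM (median 729) in knockouts and 806 to 1821 CPM (median 1158) in wild types (-0.73, adjusted p = 0.00220, edgeR). Calm3, a calmodulin gene, was 486 to 555 CPM (median 513) against 619 to 804 CPM (median 715) (-0.45), and Anxa5, annexin A5, 495 to 544 CPM (median 529) against 588 to 730.0 CPM (median 692) (-0.38); both had no overlap. Among the largest rises per kb were Gpm6a, a membrane glycoprotein of neurons, at 631 to 760.3 CPM (median 672) against 454 to 617 CPM (median 526) (0.39, adjusted p = 0.000559), Scpep1, a serine carboxypeptidase, at 813 to 1259 CPM (median 963) against 518 to 893 CPM (median 785) (0.42), and Eef1a1, an elongation factor, at 1039.9 to 1165 CPM (median 1098) against 775 to 1079 CPM (median 891) (0.28). Npvf, which encodes RFamide neuropeptides, was 41.1 to 159 CPM (median 60.4) against 13.3 to 55.4 CPM (median 26.3) (1.51, SE 0.34, adjusted p = 0.00375), with the highest wild type, replicate 5, inside the range of the knockouts.

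The effects were set beside those in the Rfx3 line (6 knockouts, 6 wild types) and the Rfx1 line (4 and 4), with 1 fit of all 34 libraries in which the effects of the lines were contrasted, for the 5 largest decreases and increases and for Foxj1, Mcidas and Ccno. Over all genes, 3.84% differed in effect between the Rfx2 and Rfx3 lines and 0.829% between the Rfx2 and Rfx1 lines. The falls at Tmem212, Cdhr4, Ccdc33, Musk and Ccdc121 were accompanied by falls in Rfx3 knockouts (log2 -3.63, -2.66, -2.53, -1.90 and -2.28), and the tests found no difference in effect at 0.05 (adjusted p between 0.181 and 0.776). The estimated differences, Rfx2 minus Rfx3, ran from -1.44 (SE 0.89) to -0.37 (SE 0.59). The 10 genes were chosen for the size of their change in the Rfx2 line, which itself favours a difference from another line, so the number that differed is not read against these shares. Rtp1, a chaperone of olfactory receptors, rose in Rfx2 knockouts (1.75) and fell in Rfx3 knockouts (-2.39), a difference of 4.15 (adjusted p = 3.15e-08). Nwd2 and the arginine methyltransferase Prmt8 differed by 2.90 and 2.63 (adjusted p = 0.000280 and 1.08e-05), and Adamts3, a procollagen protease, by 1.38 (0.0147). In the Rfx3 line Rtp1 averaged 0.241 CPM in knockouts and 1.36 in wild types, and Nwd2 0.316 and 0.485. At such low levels the sizes of the Rtp1 and Nwd2 differences are uncertain. Apln rose in both lines (1.66 and 1.33), with a difference of 0.33 (SE 0.20, adjusted p = 0.410). For Foxj1, Mcidas and Ccno the differences from the Rfx3 line were -0.07 (SE 0.22), -0.60 (SE 0.46) and -0.56 (SE 0.44), none past the threshold. Against the Rfx1 line, the effects at Tmem212, Cdhr4, Ccdc33 and Musk differed by -4.61, -2.78, -3.32 and -3.02 (adjusted p = 0.0118, 0.0175, 0.00381 and 0.00552). The differences of Ccdc121, Nwd2 and Prmt8 (-2.26, 1.75 and 1.18) did not pass (adjusted p = 0.0913, 0.112 and 0.132). Nor did those of Foxj1, Mcidas and Ccno (-0.51, -1.33 and -1.10, adjusted p = 0.334, 0.214 and 0.303). With limma-voom the adjusted p for Tmem212 and Cdhr4 was 0.169 and 0.212. Rtp1, Apln and Adamts3 differed from the Rfx1 line by 2.21, 1.395 and 1.55 (adjusted p = 0.00487, 0.00183 and 0.0458), and Adamts3 lost this call with limma-voom (0.198) and without the filter (0.0567).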

How the data were processed

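Total RNA of the cultures (RNeasy Midi kit) was made into TruSeq libraries and sequenced, per the labels. The authors deposited 1 table of raw counts per gene for all 34 libraries. CASAVA 1.8.2, STAR 2.4, featureCounts 1.4.6 and the build GRCm38 are named, per the submitters' processing notes; how reads were counted, by strand or not and on which annotation release, is not given in the sources used here, so reads of overlapping or near-identical genes may be shared between them. Symbols and exon lengths were taken from GENCODE M21, which matched 21583 gene identifiers and left 64 unmatched. Groups and replicate numbers came from the sample titles.

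Counts of the 14 Rfx2-line libraries were filtered (filterByExpr in edgeR 4.0.16, minimum count 10, minimum total 15), TMM-scaled and tested with edgeR's quasi-likelihood F test, with Benjamini-Hochberg adjustment over all genes tested and a threshold of 0.05. The SE is the log2 difference divided by the square root of F. The test was tested on simulated data with known changes. Depth was 27.4 to 40.1 M counts, so counting error was small next to the spread between replicates (chi-square per degree of freedom 4.01 to 82.2 over 43 pairs of replicates), and no library was a copy of another. Differences between lines came from contrasts in 1 fit of all 34 libraries. The alternatives were DESeq2 1.42.0, limma-voom (limma 3.58.1), other scalings and filters, a replicate block, added terms, other sets of libraries and leaving out each library.

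The members and gene lists were chosen with earlier results of these data known. Named genes were the RFX genes and Foxj1, the 15 largest called decreases and increases that averaged at least 1 on the log2 CPM scale and had no overlap between groups (predicted genes left out), the 8 largest called falls and rises per kb, and up to 4 called members of each list by smallest p. Not every gene the rule picks is printed, and results for some genes are not reported here. Ccno, Deup1, Iqca, Cfap298, Ttc26, Bbs12, Ick, Pdgfra, Gfap, Aqp4, Slc1a3, Vangl1, Ankrd6, Dchs1, Cdh2 and Btbd17 were named after their values were seen.

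Knockouts and wild types share replicate numbers. Deviations from the group means correlated between same-numbered samples at 0.160 to 0.614 in all 6 pairs. In the 42 pairs of unlike number the range was -0.608 to 0.644. For 3 of 6 knockouts the best-correlated wild type had the same number. The main test did not use the numbers, and a fit with the number as a block was run as an alternative. Whether the numbers pair the samples is not known, since the labels do not say what a number stands for.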

Additional observations from a re-analysis of the deposited data

Results flagged for a closer look

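Among the 244 groups of libraries examined for the named genes, 10 had 1 library far from the others by Dixon's test, and chance flags about 1 in 20 groups. Wild-type replicate 5 accounted for 5 of them. It had the highest wild-type level of Apln (19.1 CPM, next 12.4), Npvf (55.4, next 33.2), Nwd2 (3.35, next 1.37) and Vangl2 (145 CPM, next 123) and the lowest of Nes (592 CPM, next 721), each time on the side of the knockouts. Knockout replicate 5 was the highest knockout for Cfap100 (68.5 CPM, next 57.3), Gprc5c (4.09, next 2.86) and Kcnc1 (21.7, next 19.4). Knockout replicate 1 was the lowest knockout for Cfap298 (46.1 CPM, next 54.1) and Rabl2 (37.1, next 43.1), genes of the cilium.

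The knockout effect differed between lines in 11 tests of the difference itself (edgeR, log2 scale). All of these were at genes chosen for the size of their change in the Rfx2 line, which itself favours a difference. Against the Rfx3 line the effect on Nwd2 was higher by 2.90 (adjusted p = 0.000280), on Prmt8 by 2.63 (1.08e-05), on Rtp1 by 4.15 (3.15e-08) and on Adamts3 by 1.38 (0.0147). Levels of Nwd2 and Rtp1 were low in the Rfx3 line, so the sizes of their differences are uncertain. Against the Rfx1 line the differences were -4.61 for Tmem212 (adjusted p = 0.0118), -2.78 for Cdhr4 (0.0175), -3.32 for Ccdc33 (0.00381), -3.02 for Musk (0.00552), 2.21 for Rtp1 (0.00487), 1.395 for Apln (0.00183) and 1.55 for Adamts3 (0.0458). With limma-voom the calls of Tmem212, Cdhr4 and Adamts3 against the Rfx1 line were lost (adjusted p = 0.169, 0.212 and 0.198).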

How the results depend on the processing

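Leaving out single libraries gave 1623 to 2487 genes higher and 2266 to 2783 lower, against 1988 and 2638. Replicates 1 to 3 alone (3 against 3) gave 378 higher and 672 lower, with fewer samples. Rfx2 minus Rfx1 effects past the threshold numbered 19 higher and 38 lower with limma-voom, against 35 and 88; the cause was not tested. The looser X-box, in which fewer letters are fixed, stood in a window of 6.90% of matched genes called lower. This share was 1.77% for genes called higher and 2.03% for those not called. Counted per window and not per gene, it was 1.88% of all windows. Directions turned, none of them called, for Gfap and Rfx3 within replicates 4 and above (-0.22 and 0.011), Pdgfra with the oligodendrocyte term (-0.29), and the Rfx2 minus Rfx3 differences of Ccdc121 and Foxj1 with limma-voom (0.37 and 0.017); the cause was not tested. Every called gene named in the text kept its direction in all alternatives run.

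With the replicate number as a block (pairing by number), 1804 genes were higher and 2400 lower. Of the named calls it changed only those of Bbs12, Ick and Rfx8. With a term for Y-linked reads, 1892 genes were higher and 2584 lower, and of the named calls only that of Bbs12 was lost.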

Other observations

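Genes were also grouped by name, which overlaps the lists of the cilium. Of 28 tested Cfap genes 24 were already in those lists, and of the other 4, 3 fell. All 5 tektins tested were in those lists. Of 12 Efcab and Iqc genes outside the lists, whose names stand for EF-hand and IQ motifs, 9 fell (median log2 difference -0.54). Of 103 Ccdc genes outside the lists, named only for a coiled coil, 45 fell and 11 rose (median -0.15). Of 40 genes outside the lists that are named for sperm or spermatogenesis 12 fell and 3 rose (median -0.17). Over all genes tested 18.4% fell, 13.9% rose and the median was 0.01.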
